A study of Mus musculus with 12 samples.

Results

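Cytochrome c oxidase, or complex IV, was followed in single muscle fibers through 10 genes for its nuclear subunits. These were Cox6a2, Cox7a1 and Cox8b, the isoforms of contractile muscle, with their ubiquitous partners Cox6a1, Cox7a2 and Cox8a, the pair Cox4i1 and Cox4i2, and Cox5a and Cox5b, which have no tissue partner. The genes were chosen by name, with earlier results of these data known, and all 10 were found among 55367 gene symbols. RNA had been sequenced from 12 samples of myofibers isolated from the extensor digitorum longus (EDL), a fast muscle of the lower leg, and loaded with the calcium dye Fluo-4. The Young group held 4 samples from 3–4-month-old mice. A further 4 Fluo-4 normal and 4 Fluo-4 abnormal samples came from 26–28-month-old mice, with fibers sorted by eye for their dye staining. No engineered allele and no treatment was named for any of the 3 groups, and the methods name a separate source for aged mice. The labels and methods give neither the number of fibers nor the number of mice behind a sample, so p-values measure the spread between these samples. Values were transcripts per 1000000 transcripts (TPM), a level per transcript length that lets genes be compared with each other, and their sum was 1000000 in every sample, so read depth was unknown.

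Complex IV is the last enzyme of the respiratory chain and passes electrons from cytochrome c to oxygen while it pumps protons across the inner mitochondrial membrane. Its catalytic core is made by the mitochondrial genes mt-Co1, mt-Co2 and mt-Co3, and the nuclear subunits surround this core and tune it. Subunits 6a, 7a and 8 exist in a heart and skeletal muscle form and in a form found in most tissues, and muscle replaces much of the latter by the former as it matures after birth. For subunit 4 the pattern differs, since Cox4i1 is the common form and Cox4i2 is known from lung and from low oxygen. Cox5a and Cox5b belong to the part of the enzyme that faces the matrix.

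The isoforms of a pair are products of separate genes whose sequences have diverged, which matters for reads that must be assigned to the right partner. The coding sequences of the Cox7a pair, whose ratio kept its call under every alternative run, are shown from the reference annotation (GRCm39, GENCODE M39), with the bases that differ between the aligned partners or lie outside the alignment in capitals.
Cox7a1: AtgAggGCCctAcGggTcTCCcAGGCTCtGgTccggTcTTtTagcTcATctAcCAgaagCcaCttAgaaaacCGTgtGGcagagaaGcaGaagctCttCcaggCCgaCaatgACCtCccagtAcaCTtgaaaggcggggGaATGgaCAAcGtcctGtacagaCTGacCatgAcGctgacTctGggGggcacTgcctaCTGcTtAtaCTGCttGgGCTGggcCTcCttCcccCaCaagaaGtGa
Cox7a2: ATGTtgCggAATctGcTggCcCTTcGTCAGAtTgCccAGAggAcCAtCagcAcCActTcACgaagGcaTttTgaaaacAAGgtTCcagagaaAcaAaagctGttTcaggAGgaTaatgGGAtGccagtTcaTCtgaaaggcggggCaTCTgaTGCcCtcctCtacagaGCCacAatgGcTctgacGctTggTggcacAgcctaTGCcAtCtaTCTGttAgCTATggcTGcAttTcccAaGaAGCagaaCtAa
Over 243 aligned bases 151 were identical, or 62.1%, and the longest identical stretch was 12 bases. Identity was 62.5% for Cox6a2 and Cox6a1, 56.4% for Cox8b and Cox8a and 69.2% for Cox4i1 and Cox4i2, with a longest identical stretch of 14 bases in any pair.

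The 3 muscle isoforms shared features that had no part in their choice. All 3 lie on chromosome 7 of GRCm39, Cox7a1 from 29883569 to 29885503 on the plus strand, Cox6a2 from 127804607 to 127805559 and Cox8b from 140477069 to 140480359 on the minus strand, and 0 of the other 7 genes lie there. Their upstream sequences also had few CpG dinucleotides, with 1 for Cox6a2, 3 for Cox7a1 and 1 for Cox8b in the 250 bases before the transcript start. The other 7 genes had at least 10, as did 43.1% of 21737 protein-coding promoters of this length, and Cox6a1 had 22, Cox7a2 12 and Cox8a 11. The median promoter had 8. As few as in Cox6a2 and Cox8b were found in 16.6% of all promoters, and as few as in Cox7a1 in 30.8%. The upstream sequences of the muscle isoforms and, for contrast, of the ubiquitous Cox6a1 are shown from GRCm39, 5′ to 3′ on the strand of the gene, with motif matches in capitals.
Cox6a2 (chr7:127805560-127805809, minus strand): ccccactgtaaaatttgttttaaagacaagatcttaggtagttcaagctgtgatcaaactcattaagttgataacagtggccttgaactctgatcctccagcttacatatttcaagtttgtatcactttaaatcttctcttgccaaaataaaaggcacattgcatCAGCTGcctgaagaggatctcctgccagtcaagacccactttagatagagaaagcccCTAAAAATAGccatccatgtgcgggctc
Cox7a1 (chr7:29883319-29883568, plus strand): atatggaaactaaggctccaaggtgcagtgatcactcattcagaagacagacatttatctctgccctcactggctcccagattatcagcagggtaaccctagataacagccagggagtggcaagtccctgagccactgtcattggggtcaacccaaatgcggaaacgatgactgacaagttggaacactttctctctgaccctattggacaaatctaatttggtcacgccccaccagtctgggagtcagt
Cox8b (chr7:140480360-140480609, minus strand): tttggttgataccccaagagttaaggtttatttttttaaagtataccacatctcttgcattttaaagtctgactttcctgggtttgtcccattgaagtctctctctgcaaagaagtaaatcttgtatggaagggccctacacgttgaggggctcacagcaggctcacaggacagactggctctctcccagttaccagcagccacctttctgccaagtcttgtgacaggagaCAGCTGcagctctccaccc
Cox6a1 (chr5:115487041-115487290, minus strand): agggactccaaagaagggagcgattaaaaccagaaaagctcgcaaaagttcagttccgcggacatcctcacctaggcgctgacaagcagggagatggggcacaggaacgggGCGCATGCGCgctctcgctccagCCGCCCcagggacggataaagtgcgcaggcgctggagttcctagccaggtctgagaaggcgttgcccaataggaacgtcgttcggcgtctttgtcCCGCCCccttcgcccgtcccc
The motifs searched on both strands were the E-box CAGCTG bound by myogenic factors, the MEF2 site, the ERR half-site AAGGTCA, the NRF1 core GCGCATG, GABP CCGGAAG, Sp1 GGGCGG, YY1 AAGATGG and the TATA box TATAAA. Cox6a2 held an E-box at -85 to -80 from the GENCODE M39 transcript start and a MEF2 site at -28 to -19, and Cox8b held an E-box at -19 to -14. An E-box of these letters was found in 11.9% of all promoters and the MEF2 site in 0.5%. Cox7a1 held no match. Cox6a1 held an NRF1 core on each strand, overlapping at -139 to -130, and 2 Sp1 boxes, against 3.65% and 36.2% of all promoters with at least 1. These matches are descriptions of the letters only.

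The muscle isoforms dominated in every sample. In young fibers the highest member was Cox6a2 at 5620.0 ± 463 TPM (SD, n = 4), followed by Cox8b at 5121 ± 542 TPM, and the samples of these 2 genes overlapped. Cox7a1 (2171 ± 215 TPM), Cox5a (2131 ± 105 TPM) and Cox4i1 (2014 ± 134 TPM) formed a level of their own, each overlapping the next. Cox5b (1336 ± 154 TPM) and Cox7a2 (841 ± 51.7 TPM) came below without overlap. Cox8a (122 ± 10.1 TPM) and Cox6a1 (50.6 ± 5.82 TPM) were far lower, and again did not overlap. Cox4i2 was listed between 0.064 and 0.762 TPM in 11 samples and at 0 in a Fluo-4 abnormal sample, so almost no transcript of the subunit 4 partner was present. In the aged groups Cox4i1 ranked above Cox7a1, with overlapping samples. In the Fluo-4 abnormal fibers Cox7a1 dropped behind Cox5a to the fifth rank and its samples overlapped those of Cox5b, whereas Cox5b was below Cox7a1 without overlap in the other 2 groups.

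**Figure D1:**
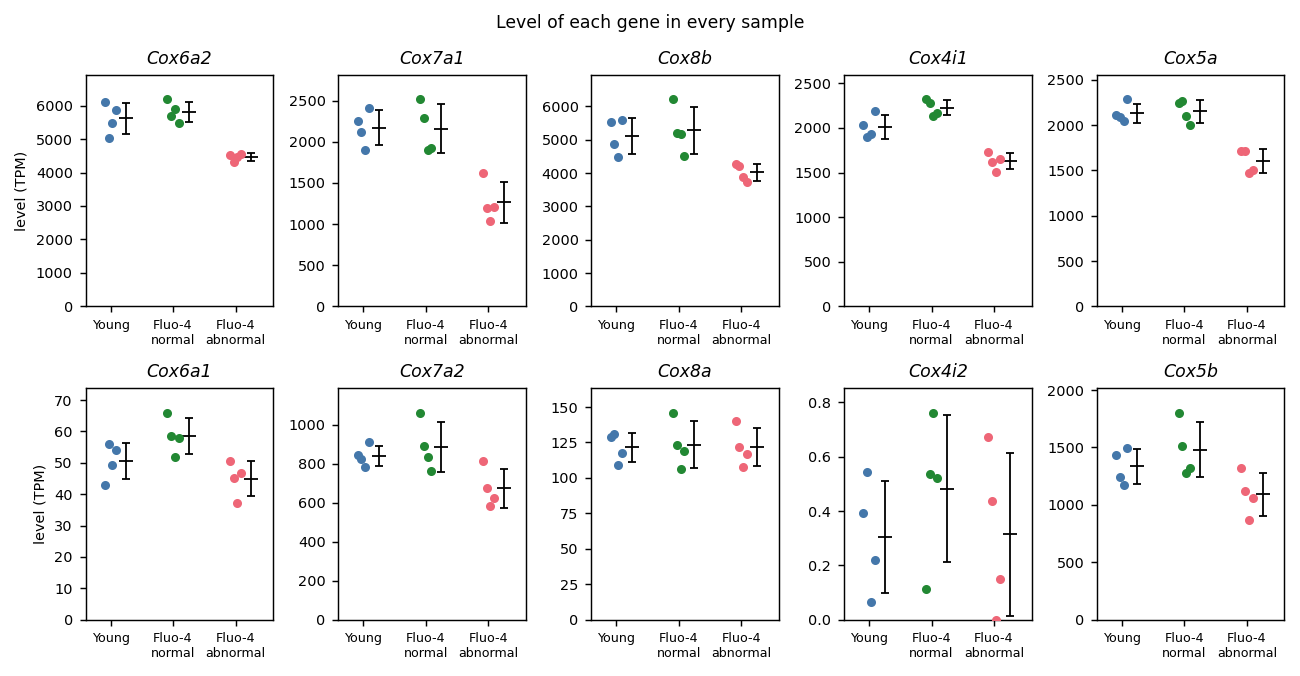
Level of the 10 genes in TPM on linear axes from 0, with 1 point per sample and the mean ± SD (n = 4) beside the points, for the 3 groups. The Fluo-4 abnormal samples lay below all Fluo-4 normal samples for Cox6a2, Cox7a1, Cox8b, Cox4i1, Cox5a and Cox6a1, whereas those of Cox8a overlapped in the 3 groups and Cox4i2 stayed under 1 TPM.

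Fluo-4 abnormal and Fluo-4 normal fibers of aged mice were compared to see how fibers with abnormal dye staining differ from other fibers of the same age. All 10 genes had a lower mean log2(TPM + 1) in the abnormal fibers. Of these, 7 passed an adjusted p-value of 0.05, all lower, in limma's test across all 14428 genes with the Benjamini-Hochberg adjustment, against 1.99% of all genes tested that were called lower. The median log2 change of the 10 genes was -0.39, whereas that of all genes tested was 0.10. When the samples were rescaled by TMM-type factors the median of all genes moved to 0.00 and that of the 10 genes to -0.61, so relative to all genes it was -0.49 before and -0.61 after. For 6 of the 10 genes, all 4 Fluo-4 abnormal samples were below all 4 Fluo-4 normal samples, against 2.54% of all genes. If a sample held several fibers, a smaller share of fibers of a type and less RNA per fiber cannot be told apart.

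Cox7a1, the muscle form of subunit 7a, changed most among the 10 genes. It was at 1615, 1199, 1035 and 1209 TPM in the Fluo-4 abnormal samples and at 2514, 2288, 1904 and 1928 TPM in the Fluo-4 normal samples. The groups did not overlap, and the Fluo-4 abnormal mean of 1264 ± 247 TPM was 58.6% of the Fluo-4 normal mean of 2158 ± 295 TPM (SD, n = 4). The log2 change was -0.78 with a standard error (SE) of 0.13 (95% interval -1.07 to -0.50, adjusted p = 0.0040 from limma), and it passed under all 22 alternatives. Among the 198 tested genes with a mean of at least 500 TPM, 7 had a lower log2 change in this comparison, and the median of the 198 was -0.10. Its ubiquitous partner Cox7a2 was at 813, 673, 584 and 626 TPM in the Fluo-4 abnormal and 1062, 893, 833 and 762 TPM in the Fluo-4 normal samples. These groups overlapped, since the highest Fluo-4 abnormal sample exceeded the lowest Fluo-4 normal sample. Cox7a2 fell by 0.40 on the log2 scale (SE 0.11, adjusted p = 0.042 from limma), a call lost under 14 of 22 alternatives.

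Cox8b, the muscle form of subunit 8, fell, and its partner Cox8a did not pass the test. Cox8b was at 4277, 4208, 3897 and 3719 TPM in the Fluo-4 abnormal samples and 6214, 5209.8, 5186 and 4522 TPM in the Fluo-4 normal samples, without overlap. The log2 change was -0.39 (SE 0.11, adjusted p = 0.040 from limma), and the call was lost under 12 of 22 alternatives. Cox8a was at 140.1, 122, 108 and 117 TPM in the Fluo-4 abnormal and 146, 123, 106 and 119 TPM in the Fluo-4 normal samples, which ran through the same range. Its log2 change was -0.02 (adjusted p = 0.94 from limma) with a 95% interval of -0.24 to 0.20, and with TMM-type factors it was -0.24 (adjusted p = 0.39 from limma). The gene body of Cox8b overlaps Psmd13, a proteasome gene on the other strand, over 1492 bp, and the libraries keep no strand. Psmd13 was listed at 65.9 to 91.2 TPM, far below Cox8b. Noncoding genes on the other strand also overlap Cox8a (Gm59070, over 2483 bp) and Cox7a1 (Gm53356, over 1144 bp). Neither had a value in these data, so their part in the reads of Cox8a and Cox7a1 could not be judged.

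Cox6a2 and Cox6a1 fell by similar amounts. Cox6a2 was at 4534, 4311, 4455 and 4553 TPM in the Fluo-4 abnormal samples and at 6186, 5701, 5889 and 5478 TPM in the Fluo-4 normal samples, and the lowest of the latter was above the highest of the former. Its log2 change was -0.38 (SE 0.08, adjusted p = 0.012 from limma). Cox6a1 was at 50.5, 45.1, 37.3 and 46.7 TPM in the Fluo-4 abnormal and 66, 58.5, 51.9 and 58 TPM in the Fluo-4 normal samples, again without overlap. Its log2 change was also -0.38 (SE 0.11, adjusted p = 0.044 from limma), with the call lost under 12 of 22 alternatives. Cox6a1 has a processed pseudogene, Gm50432, which was listed at no more than 0.439 TPM. A longer copy, the noncoding gene Gm58921 (92.9% identity over 496 bp), had no value in these data, so its part could not be judged.

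Among the genes without a muscle partner, Cox4i1 and Cox5a fell, and Cox5b and Cox4i2 did not pass. Cox4i1 was at 1728, 1619, 1509.6 and 1652 TPM in the Fluo-4 abnormal and 2319.5, 2284, 2139 and 2166 TPM in the Fluo-4 normal samples, with no overlap and a log2 change of -0.45 (SE 0.07, adjusted p = 0.0026 from limma). Cox5a was at 1712, 1713, 1469 and 1499 TPM and 2244, 2266, 2097 and 1997 TPM in the same order, also without overlap, with a log2 change of -0.43 (SE 0.08, adjusted p = 0.0050 from limma). Cox5b was at 1323, 1121, 866 and 1059.9 TPM and 1803, 1517, 1282 and 1319.7 TPM, and the groups overlapped. Its log2 change was -0.44 (SE 0.14, adjusted p = 0.060 from limma). It passed under 7 of 22 alternatives, among them TMM-type factors and the fit with the replicate number as a block (adjusted p = 0.0031 from limma). A copy of Cox5b with 99.2% identity, Cox5b-ps, was listed at 8.21 to 19.6 TPM and could share its reads. Cox5a has the copies Gm11633, listed at 0.42 to 2.96 TPM, and Gm74440 (93.2% identity over 632 bp), which had no value. Cox4i2 had a log2 change of -0.18 (adjusted p = 0.55 from limma) at values under 1 TPM.

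**Figure D2:**
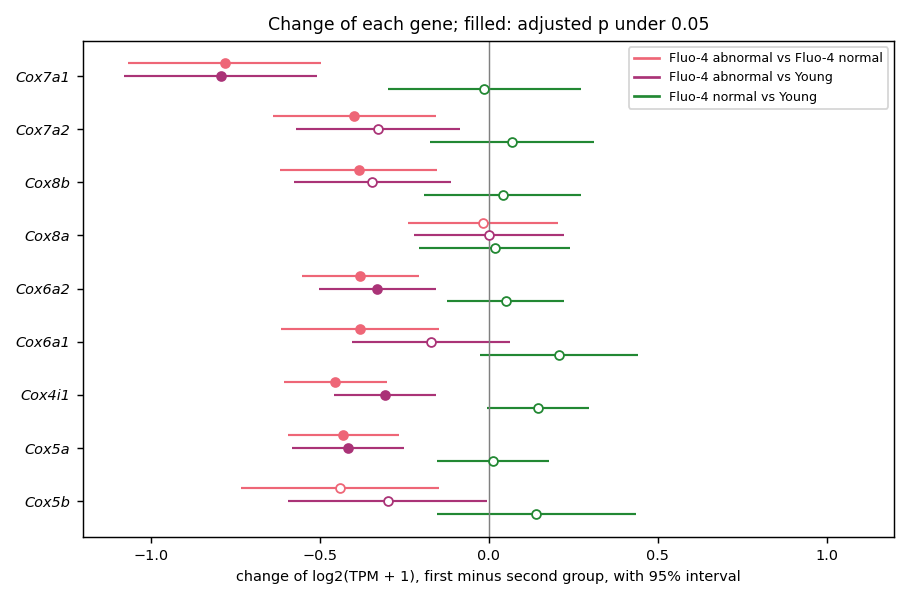
Change of log2(TPM + 1) with its 95% interval for 9 of the genes in the 3 comparisons, with filled points for an adjusted p-value under 0.05. Cox7a1 lay near -0.8 in both comparisons of Fluo-4 abnormal fibers, Cox8a near 0 in all 3, and the other genes between -0.17 and -0.45 in the comparisons of Fluo-4 abnormal fibers.

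The composition of each pair was then compared within samples as the share of the muscle isoform, a percentage of the summed TPM of the pair that does not depend on scaling between samples. Cox7a1 made up 66.5%, 64%, 63.9% and 65.9% of the Cox7a pair in the Fluo-4 abnormal samples, 70.3%, 71.9%, 69.6% and 71.7% in the Fluo-4 normal samples and 72.8%, 71.9%, 70.8% and 72.6% in the Young samples. The Fluo-4 abnormal samples were below all others, with means of 65.1% ± 1.31, 70.9% ± 1.13 and 72% ± 0.892 (SD, n = 4). The difference from the Fluo-4 normal fibers was -5.78 percentage points (exact permutation test, two-sided, p = 0.0286 and 0.107 adjusted over 15 tests), and 0.0286 is the smallest p this design can give. In samples of the same number, it was -3.8, -7.9, -5.64 and -5.78 percentage points. The test of unequal change asked whether the log2 ratio of the isoforms differed, in the fit of all genes with 12 ratios adjusted together. The ratio of Cox7a1 to Cox7a2 was 1.87 ± 0.108 in Fluo-4 abnormal and 2.44 ± 0.132 in Fluo-4 normal fibers, and its log2 change was -0.38 (SE 0.07, adjusted p = 0.00035 from limma). It passed under all 22 alternatives, but most of these left the log2 change at -0.38. Rescaling, filters and leaving out Young samples can hardly move a ratio taken within the aged samples.

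Cox8b held 96.8%, 97.2%, 97.3% and 96.9% of the Cox8 pair in the Fluo-4 abnormal samples, 97.7%, 97.7%, 98% and 97.4% in the Fluo-4 normal and 97.7%, 97.4%, 97.6% and 97.9% in the Young samples. The Fluo-4 abnormal samples lay below all others, although the difference from the Fluo-4 normal fibers was only -0.641 percentage points (exact permutation test, p = 0.0286, 0.107 adjusted over 15 tests). Expressed as a ratio, Cox8b exceeded Cox8a 33.2 ± 2.57-fold in Fluo-4 abnormal and 42.9 ± 4.49-fold in Fluo-4 normal fibers. The log2 change of the ratio was -0.37 (SE 0.09, adjusted p = 0.0062 from limma). With the share of Myh4 as a covariate it was -0.27 (adjusted p = 0.12 from limma).

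The balance of the Cox6a pair was not shown to differ. Cox6a2 held 99% ± 0.116 of the pair in Fluo-4 abnormal, 99% ± 0.085 in Fluo-4 normal and 99.1% ± 0.163 in Young fibers (SD, n = 4), with overlapping samples. The log2 change of its ratio to Cox6a1 between Fluo-4 abnormal and Fluo-4 normal fibers was 0.00 with a 95% interval of -0.27 to 0.27 (adjusted p = 1.00 from limma), so a change as large as that of the Cox7a pair lay outside the interval. Cox4i1 held at least 99.961% of the subunit 4 pair in every sample. For the 3 muscle pairs together, the muscle isoforms held 92.1% ± 0.66 of the TPM in Fluo-4 abnormal, 92.6% ± 0.333 in Fluo-4 normal and 92.7% ± 0.395 in Young fibers, and the samples overlapped (exact permutation test, p = 0.286 between the aged groups, 0.612 adjusted over 15 tests). In samples of the same number the combined share was lower in the Fluo-4 abnormal sample of all 4 pairs, with differences of -0.91, -0.43, -0.12 and -0.39 percentage points, and the exact test over these pairs gave p = 0.125, the smallest it can give.

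**Figure D3:**
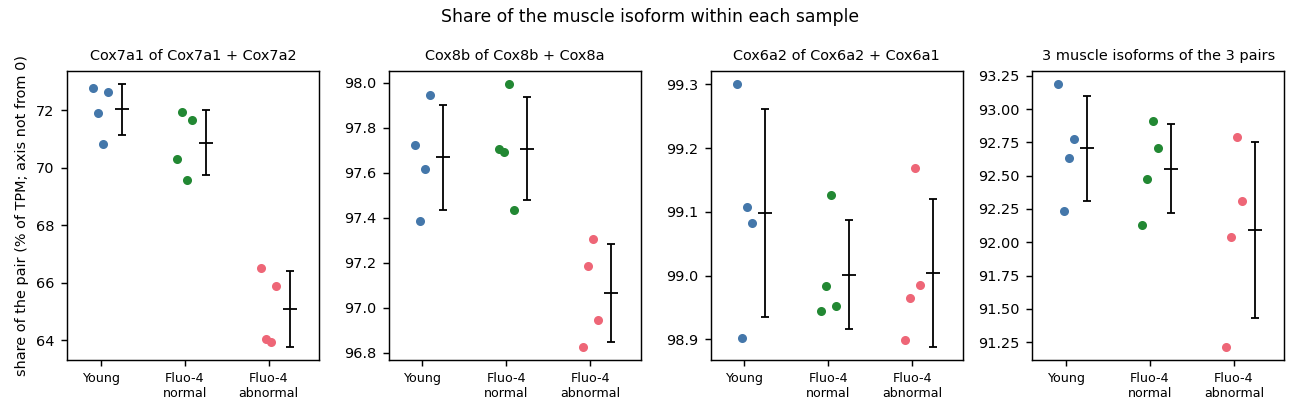
Share of the muscle isoform in percent of the TPM of its pair, with 1 point per sample and the mean ± SD (n = 4), on axes that do not start at 0 and span different ranges. Fluo-4 abnormal samples lay below all others for Cox7a1 (63.9% to 66.5%) and Cox8b (96.8% to 97.3%), and overlapped the other groups for Cox6a2 and for the 3 pairs combined.

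A share can fall because the muscle form drops or because the partner does not, so each isoform was also set against the mean log2(TPM) of Cox5a and Cox5b in the same sample, a comparison chosen after the values had been seen. Relative to Cox5a and Cox5b, Cox7a1 was at -0.07 ± 0.13 in Fluo-4 abnormal and 0.27 ± 0.05 in Fluo-4 normal fibers on the log2 scale (SD, n = 4), a difference of -0.34 with no overlap (exact permutation test, p = 0.0286, 0.15 adjusted over 21 tests). Its partner Cox7a2 differed by 0.04 with overlapping samples (p = 0.457, same exact test). In the Cox8 pair the order was the other way. Cox8b differed by 0.05 with overlapping samples (p = 0.543, same exact test), and Cox8a by 0.42, from -3.85 ± 0.09 in Fluo-4 normal to -3.44 ± 0.05 in Fluo-4 abnormal fibers, with no overlap (p = 0.0286, same exact test, 0.15 adjusted). On this scale the muscle isoform stood apart in the Cox7a pair and the ubiquitous isoform in the Cox8 pair. Cox6a2 (0.06) and Cox6a1 (0.05) differed less, with overlapping samples.

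**Figure D4:**
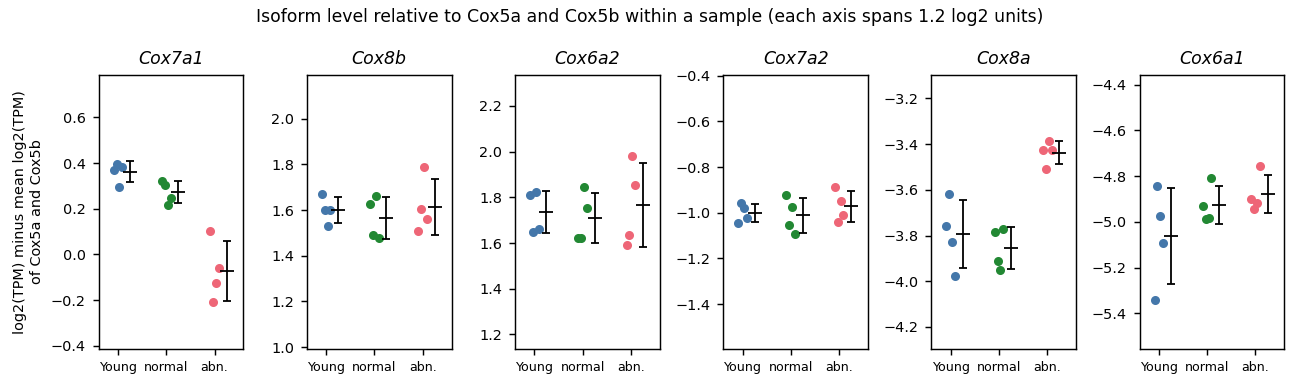
Level of each isoform as log2(TPM) minus the mean log2(TPM) of Cox5a and Cox5b in the same sample, with 1 point per sample and the mean ± SD (n = 4), and each axis spanning 1.2 log2 units. Fluo-4 abnormal samples (abn.) stood apart for Cox7a1, at a mean of -0.07 against 0.27 in Fluo-4 normal fibers, and for Cox8a, at -3.44 against -3.85.

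Against young fibers, the question was how the abnormal fibers differ from those of young mice. This comparison shares its Fluo-4 abnormal samples with the first. All 10 genes had a log2 change of 0 or below, and 4681 of all 14428 genes tested had one below 0. The median of the 10 was -0.32 against 0.07 for all genes, and 4 passed, all lower, against 2.41% of all genes called lower. These were Cox7a1 (-0.79, adjusted p = 0.0032), Cox5a (-0.42, 0.0054), Cox4i1 (-0.31, 0.018) and Cox6a2 (-0.33, 0.024), all from limma. For these 4 genes and Cox8b (-0.34, adjusted p = 0.067), no Fluo-4 abnormal sample reached a Young sample, which held for 3.95% of all genes. Cox7a1 in the Young samples was at 2250.5, 2117, 1904 and 2414 TPM, so the Fluo-4 abnormal mean was 58.2% of the Young mean. Cox7a2 had a log2 change of -0.33 (adjusted p = 0.090), Cox5b -0.30 (0.21) and Cox6a1 -0.17 (0.39), and Cox8a was at 0.00 with a 95% interval of -0.22 to 0.22. The call of Cox6a2 was lost under 5 of 20 alternatives, TMM-type factors among them. The ratio of Cox7a1 to Cox7a2 changed by -0.47 (SE 0.07, adjusted p = 9.7e-05 from limma) and that of Cox8b to Cox8a by -0.34 (SE 0.09, adjusted p = 0.0076 from limma). With the Myh4 share as a covariate, the latter change was -0.29 (adjusted p = 0.060 from limma).

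Between Fluo-4 normal fibers and young fibers, 0 of the 10 genes passed in limma, while 1.15% of all genes were called in either direction. An unadjusted p-value under 0.05 was found for 0 of the 10 genes and for 1865 of all 14428 genes tested. Log2 changes ranged from -0.01 for Cox7a1, with a 95% interval of -0.30 to 0.27, to 0.21 for Cox6a1. Of the 10 genes 9 were above 0, as were 6278 of all 14428 genes tested. Cox4i1 was at 2037, 1893, 1933 and 2192 TPM in the Young samples, with a log2 change in Fluo-4 normal fibers of 0.15 (adjusted p = 0.41 from limma). The ratio of Cox7a1 to Cox7a2 differed by -0.08 with a 95% interval of -0.23 to 0.06, and that of Cox8b to Cox8a by 0.02 with an interval of -0.18 to 0.22.

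The rest of complex IV set these values in context. Of 9 other nuclear subunit genes 8 were tested, and 5 passed between Fluo-4 abnormal and Fluo-4 normal fibers, all lower, namely Cox6c (-0.66), Cox7c (-0.56), Cox6b1 (-0.50), Cox7b (-0.48) and Ndufa4 (-0.39). Adjusted p-values from limma ran from 0.00077 for Cox6c to 0.026 for Cox7b, and for each of the 5 the groups did not overlap. Over all genes tested, 1.99% were called lower and 2.54% were lower without overlap. Cox6c has a further gene of similar name, Cox6c2, listed at 29.4 to 102 TPM, and copies of genes outside the 10 were not searched. Cox7a2l, a relative of Cox7a2, had a log2 change of -0.17 (adjusted p = 0.16 from limma). The testis forms Cox6b2, Cox7b2 and Cox8c were listed at 0 in at least 10 of 12 samples. All 3 mitochondrially-encoded core subunits fell, mt-Co1 by 0.71, mt-Co2 by 0.80 and mt-Co3 by 0.78 on the log2 scale (adjusted p = 0.0035, 0.0022 and 0.0029 from limma). In this comparison Cox7a1 at -0.78 was in the range of these core subunits, and the other 9 genes were not. Against Young fibers Cox7a1 was outside it, at -0.79 against -0.36 for mt-Co1, -0.54 for mt-Co2 and -0.45 for mt-Co3. From Young to Fluo-4 normal fibers the 3 core genes changed by 0.35, 0.27 and 0.34 (adjusted p = 0.19, 0.37 and 0.25 from limma). Cox7a1 changed by -0.01 there.

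**Figure D5:**
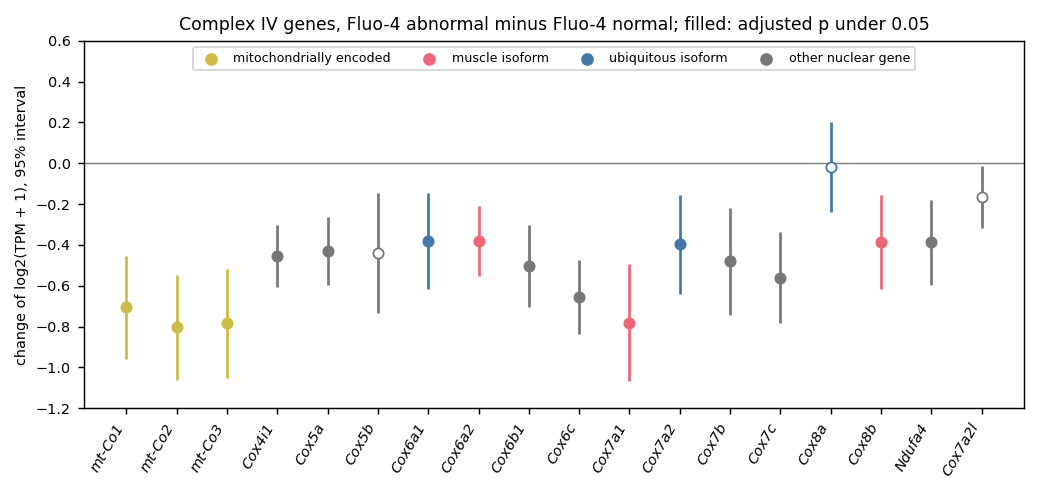
Change of log2(TPM + 1) between Fluo-4 abnormal and Fluo-4 normal fibers with its 95% interval for 18 complex IV genes, colored by class, with filled points for an adjusted p-value under 0.05. The 3 mitochondrially-encoded genes and Cox7a1 were lowest, between -0.71 and -0.80, and Cox8a was nearest to 0.

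Genes that help to build the complex were counted in the same way. Of 27 assembly factors tested 21 were lower in the Fluo-4 abnormal fibers, against 4247 of all 14428 genes tested. The median log2 change of the 27 was -0.10. Of these, 1 was called lower, against 1.99% of all genes, and this was Coa6, a copper-handling factor for the Cox2 protein (41.4 ± 2.43 against 51.6 ± 5.59 TPM, log2 change -0.31, adjusted p = 0.034 from limma). Nuclear subunits of the other complexes gave a background for the 10 genes. Of 36 complex I genes 23 passed with a median of -0.35, of 9 complex III genes 8 passed with a median of -0.39, and of 17 ATP synthase genes 16 passed with a median of -0.44, all lower. The 10 genes, with 7 passed and a median of -0.39, thus lay within the range of the other complexes.

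The genes whose profile was most like the muscle isoforms were sought among 5994 genes of at least 5 TPM. The mean log2(TPM + 1) of Cox6a2, Cox7a1 and Cox8b had its highest Pearson correlations over the 12 samples with Cox7c (0.986), Uqcrq (0.985), Ndufs8 (0.984), Ndufa11 (0.983) and Ndufb2 (0.982), all subunits of the respiratory chain. The mean of Cox6a1, Cox7a2 and Cox8a was most like Higd1a (0.936), Ndufb5 (0.934), Nkiras1 (0.928), Ndufb8 (0.919) and Tbca (0.913). These correlations are descriptions, since all genes of a sample share its scaling and the 3 groups differ.

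Single samples stood out across many of the 10 genes. In the Fluo-4 abnormal group, replicate 1 was highest for 8 of 10 genes and replicate 3 lowest for 8, and in the Fluo-4 normal group replicate 1 was highest for 8. Without replicate 1 of the Fluo-4 normal fibers, 4 of the 10 genes passed in place of 7, and the same number passed without replicate 2 of that group or without replicate 2, 3 or 4 of the Fluo-4 abnormal fibers. Cox7a1, Cox4i1, Cox5a and Cox6a2 kept their call in each of these. Over all genes, 287 were called lower with every sample and 283 without replicate 1 of the Fluo-4 normal fibers. Without each of the other samples just named, 192 to 221 were. Leaving out any Young sample, which is not part of this comparison, left 5 of the 10 genes, and 249 to 266 over all genes were then called lower.

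Fiber type and other cells were read from marker genes. Myh4, the myosin of type IIb fibers, was at 10770.1, 14714, 15574 and 10992 TPM in Fluo-4 abnormal and 6254, 8598, 9813 and 8159 TPM in Fluo-4 normal samples, without overlap (log2 change 0.66, adjusted p = 0.020 from limma). Among the 4 adult myosin genes it held 98.9% to 99.7% in Fluo-4 abnormal, 93.7% to 99.2% in Fluo-4 normal and 96.9% to 98.6% in Young samples, and Myh1 of type IIx fibers held 0.31% to 0.988%, 0.733% to 5.9% and 1.39% to 3.05%. The slow myosin Myh7 was at most 0.205 TPM, so the label of fast EDL fibers held. With the Myh4 share as a covariate, 2 of the 10 genes passed between the aged groups, Cox7a1 (-0.81, adjusted p = 0.039) and Cox4i1 (-0.43, 0.038), and the Cox7a ratio kept its call (-0.34, adjusted p = 0.024), all from limma. The 5 genes that lost their call kept log2 changes from -0.39 to -0.50, and the median of the 10 genes was -0.43 against -0.39 without the covariate. Over all genes, the number called lower dropped from 287 to 108 with the covariate. Summed TPM of 8 endothelial markers was 12 to 81.2 in Fluo-4 abnormal and 46.9 to 144 in Fluo-4 normal samples, and that of 8 fibroblast markers 28.3 to 138 and 43.4 to 184. Satellite cell (9.54 to 17.9 and 5.63 to 14.7, 6 genes), pericyte and smooth muscle (34.5 to 51.5 and 20.7 to 55.3, 9 genes), immune (7.85 to 13.7 and 5.76 to 21.1, 8 genes), erythroid (44.4 to 236 and 119 to 482, 5 genes) and Schwann cell sums (6.69 to 13.6 and 3.73 to 15.8, 5 genes) overlapped too. In Young samples the sums were 22.4 to 44.4 for endothelial, 38.7 to 81.4 for fibroblast, 10.3 to 14.4 for satellite cell, 29.3 to 93 for pericyte and smooth muscle, 33.1 to 121 for erythroid and 3.56 to 5.52 for Schwann cell markers, and 0.991 to 2.62 for immune markers, which was below both aged groups. Of 5 adipocyte markers, Adipoq, Plin1 and Lep were at 0 in all samples. The sum of the 5 was 0 to 3.08 in Fluo-4 normal samples and 0 in Fluo-4 abnormal and Young samples. The part of these cells in the values of the ubiquitous isoforms was not tested.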

How the data were processed

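RNA of isolated EDL myofibers from 12 samples, 4 per group, was sequenced by the authors from 10 ng of total RNA with SMART-Seq v4, which keeps no strand. Per the labels and methods, reads were aligned to GRCm39 with DRAGEN 4.3, and the authors deposited TPM values per gene symbol, 1 file per sample. The annotation release is not given in the sources used here. Each file held 55487 lines with 55367 distinct symbols, and lines of the same symbol were summed. Values above 0 TPM were found for 16841 to 17936 genes per sample. Counts were not used here, so no counting interval was computed.

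Symbols were classed by GENCODE M39 and RefSeq, with 2876 unmatched. The 14428 protein-coding and mitochondrially-encoded genes with a mean of at least 0.02 TPM in a group were fitted on log2(TPM + 1) in R 4.3.3. The linear model of limma 3.58.1 held the 3 groups together, let the variance follow mean expression, and took the Benjamini-Hochberg adjustment. This scale understates changes of low genes. The log2 ratios of the 4 pairs entered as further features. Shares were compared by two-sided exact permutation over 70 arrangements. The fit was tested on simulated data. Sequences came from GRCm39, BLAST 2.17.0 was used to find copies with 90% identity or more over 100 bp, and Python 3.11.15 was used for the rest. For each gene the canonical transcript was used where it had a consensus coding sequence, and otherwise the first that had one.

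The genes named were the 10 members, the other complex IV subunits, assembly factors that passed (at most 5), the 5 genes most alike to each isoform class, and marker lists for fiber types and 8 other cell types. Members and lists were chosen with earlier results of these data known. Groups came from the sample titles. Replicate numbers are shared by the aged groups, and neither labels nor methods say what they mark. Over 5994 genes, aged samples of the same number deviated together from their group means, with correlations of 0.438, 0.375, 0.43 and 0.302, against -0.365 to 0.234 for different numbers, so they were treated as paired in the fit with the replicate block. As alternatives, samples were rescaled by TMM-type factors (trimming 30% of ratios and 5% of levels) or after removal of the mitochondrially-encoded genes, the filter was dropped or raised to 5 TPM, and the pseudocount was set to 0.1. Others were all rows, only the groups compared, the block, the Myh4 share as a covariate, leaving out each sample, ratios in place of percentages and copies added to their parent. The block with TMM-type factors and the comparison with Cox5a and Cox5b were added after the data were seen.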

Additional observations from a re-analysis of the deposited data

How the results depend on the processing

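The number of the 10 genes called between Fluo-4 abnormal and Fluo-4 normal fibers, 7, was 4 with no filter, 4 with all rows of the files, 4 with only the groups compared and 2 with the Myh4 share as a covariate. It was 8 with the replicate block. The number called lower over all genes moved too, from 287 to 270, 274, 181, 108 and 340 in the same order, and the median log2 change of the 10 genes was -0.43 with the Myh4 share and -0.39 with the others. Leaving out single samples gave 4 to 8 for this comparison and 2 to 6 against Young fibers, where 2 remained without replicate 1 or 4 of the Young fibers. Over all genes, these runs called 192 to 299 lower in the first comparison. Against Young fibers they called 210 to 429 lower, compared with 348 with every sample. Between Fluo-4 normal and Young fibers 0 of the 10 genes were called under each alternative. With the Myh4 share as a covariate, the log2 change of the Cox8b to Cox8a ratio was -0.27 against Fluo-4 normal (adjusted p = 0.12 from limma) and -0.29 against Young fibers (adjusted p = 0.060 from limma). The causes of these differences were not tested. The replicate block ended none of the calls of ratios or genes and added that of Cox5b. For shares, the test paired by replicate number cannot go below p = 0.125 with 4 pairs, and the exact test without a sample cannot go below 0.0571 with 3 against 4, so these were read as values only. Without single samples the difference in the Cox7a1 share stayed between -6.25 and -5.39 percentage points and that in the Cox8b share between -0.731 and -0.544. None of the called results reversed under the alternatives run. A filter of 5 TPM gave no value for Cox4i2, and the log2 ratio none for the Cox4i1 share, since Cox4i2 was at 0 in a sample. Read depth was unknown, so the precision of Cox4i2 under 1 TPM could not be judged.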
